A study of Mus musculus with 17 samples.

Results

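The DNA replication machinery was followed through 47 listed genes in germ cells sorted from mouse testis. The genes were listed by name and not by their values, though with earlier results of these data known. They were found in the count table through their Entrez gene numbers, which a RefSeq gene table of GRCm38.p6 (used for names only) pairs with symbols. All 47 were among the 24013 rows of the table, and all 47 had enough counts to be tested among 15451 genes. They were ordered by role into origin recognition and licensing (9 genes), the replicative helicase (12), polymerases and primase (9), the clamp, its loader and the lagging strand (8), single-strand binding and fork protection (4) and nucleotide supply (5).

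Before DNA synthesis, the origin recognition complex, Cdc6 and Cdt1 load the ring of MCM proteins onto DNA, and geminin, the product of Gmnn, binds Cdt1 and stops a second loading in the same cycle. Cdc45 and the GINS complex then turn the MCM ring into an active helicase, primase and DNA polymerase alpha start each strand, polymerases delta and epsilon extend it on the PCNA clamp, and ribonucleotide reductase with the thymidylate enzymes supplies the deoxynucleotides. Many of these genes are known targets of E2F transcription factors and are transcribed mainly in cells that enter the cell cycle; in the testis, spermatogonia divide by mitosis and replicate their DNA once more before meiosis.

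RNA was sequenced from 17 libraries in 4 groups, all from mice of a mixed B6/J and B6/N background with the genotype Tert-Tomato/+, in which a red fluorescent reporter marks Tert-expressing cells. P6gonocyte (4 libraries) held gonocytes positive for TERT and for an OCT4-GFP reporter from neonates of day 6. From adults, KITpos (5 libraries) held TERT-high cells positive for Kit, the receptor that marks differentiating spermatogonia; GFRA1pos (4 libraries) held TERT-high, Kit-negative cells positive for GFRA1, a receptor for the niche factor GDNF; and GFRA1neg (4 libraries) held TERT-high, Kit-negative cells without GFRA1. Nothing in the labels ties libraries to separate animals, so p-values measure a spread between libraries that may be technical. In P6gonocyte, age goes together with the OCT4-GFP gate and with a gate labelled TERT-positive rather than TERT-high. It also goes together with the lack of a named gate on Kit or GFRA1, so these cannot be told apart.

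Total counts per library ran from 5178352 to 12641907, and the listed genes had 33 to 5066 counts each in every library. Levels are given as CPM, the count scaled to a common library depth, with depths corrected by the TMM method. In the adult groups Gfra1 and Kit followed the sort labels. Gfra1 had a mean of 390 CPM in GFRA1pos and 22.8 in GFRA1neg, and Kit had 353 in KITpos and 27.6 in GFRA1neg. P6gonocyte, whose label names no gate on Kit or GFRA1, had means of 188 CPM of Kit and 145 of Gfra1. Its Kit mean was above those of both Kit-negative adult groups (17.6 in GFRA1pos). Pou5f1, the OCT4 gene, averaged 19.7 CPM in P6gonocyte and at most 4.28 in the adult groups. Tert itself was low, with means of 7.21 CPM in P6gonocyte, 7.54 in KITpos, 7.25 in GFRA1pos and 11.3 in GFRA1neg. It was not called different between any groups, P6gonocyte and the TERT-high adult groups among them. All 4 germ cell markers checked (Ddx4, Dazl, Sall4, Zbtb16) were present in every library. Markers of other cells were present too. The summed CPM of 6 spermatid markers was 1.66 to 3.33 in P6gonocyte, 266 to 1029 in KITpos, 55.5 to 1485 in GFRA1pos and 281 to 1319 in GFRA1neg, and that of 8 spermatocyte markers was 253 to 341 in P6gonocyte, 648 to 1030 in KITpos, 319.6 to 1109 in GFRA1pos and 757 to 2265 in GFRA1neg. Spermatid transcripts were highest in replicate 1 of KITpos, replicate 2 of GFRA1pos and replicate 2 of GFRA1neg. Sertoli cell markers summed to 45.3 to 146 CPM in P6gonocyte and to at most 38.2 in the adult groups, with the top value in replicate 2 of P6gonocyte. That library also had the highest level of its group for 33 of the 47 genes and the lowest Pou5f1. Replicate 1 of KITpos had the most Sertoli and Leydig cell markers of its group. Its Leydig markers summed to 97.45 CPM, against at most 26.5 in the other groups, and their part in the levels below was not tested.

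Promoters are shown for 6 example genes, which do not stand for the share of matches among the 47. RefSeq promoter windows (GRCm38.p6, 250 bases before to 50 after a start) were found for 38 of the 47 genes. Each was searched on both strands for 4 E2F-type sequences of 8 bases, TTTCCCGC, TTTCGCGC, TTTGCCGC and TTTGGCGC. The 200 bases before the start are printed on the strand of the gene, with the matches in capitals.
Orc1, chr4:108579254-108579453, plus strand: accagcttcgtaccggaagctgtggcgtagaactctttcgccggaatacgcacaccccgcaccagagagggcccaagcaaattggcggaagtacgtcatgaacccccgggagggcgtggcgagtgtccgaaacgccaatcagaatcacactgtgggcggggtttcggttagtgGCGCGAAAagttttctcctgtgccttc
Mcm5, chr8:75109309-75109508, plus strand: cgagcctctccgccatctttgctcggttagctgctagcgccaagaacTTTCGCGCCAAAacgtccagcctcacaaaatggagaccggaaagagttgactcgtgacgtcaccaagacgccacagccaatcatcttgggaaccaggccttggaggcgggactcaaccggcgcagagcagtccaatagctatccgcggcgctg
Mcm6, chr1:128359706-128359905, minus strand: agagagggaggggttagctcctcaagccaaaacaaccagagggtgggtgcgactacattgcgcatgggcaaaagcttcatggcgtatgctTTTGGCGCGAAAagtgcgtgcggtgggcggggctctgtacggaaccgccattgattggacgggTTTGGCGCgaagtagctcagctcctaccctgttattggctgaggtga
Pola1, chrX:93632156-93632355, minus strand: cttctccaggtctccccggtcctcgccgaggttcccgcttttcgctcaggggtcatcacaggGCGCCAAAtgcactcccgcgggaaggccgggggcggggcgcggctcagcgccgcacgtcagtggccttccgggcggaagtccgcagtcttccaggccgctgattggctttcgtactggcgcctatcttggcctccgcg
Prim1, chr10:128015015-128015214, plus strand: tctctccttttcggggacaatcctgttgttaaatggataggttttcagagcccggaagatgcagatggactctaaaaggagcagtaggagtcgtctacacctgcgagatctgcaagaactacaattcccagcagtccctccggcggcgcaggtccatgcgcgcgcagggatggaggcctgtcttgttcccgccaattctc
Rrm2, chr12:24708054-24708253, plus strand: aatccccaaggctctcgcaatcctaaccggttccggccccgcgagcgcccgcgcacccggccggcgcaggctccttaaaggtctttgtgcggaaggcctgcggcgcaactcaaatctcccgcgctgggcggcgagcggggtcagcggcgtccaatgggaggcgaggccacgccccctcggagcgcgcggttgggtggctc
Orc1, Mcm5, Mcm6 and Pola1 held matches in these windows, and Prim1 and Rrm2 held none. Pcna, Mcm10 and Tk1, which are given by library below, also held none in their windows and are not printed. The matches began 27 bases before the start in Orc1, 138 bases before it in Pola1 and 153 and 149 bases before it in Mcm5, where the 2 matches overlap. Mcm6 had 3 matches, at 110, 106 and 47 bases before the start, of which the first 2 overlap. Of the 38 genes with a window, 15 (39.5%) held at least 1 match, against 704 of 27025 genes (2.6%) in the whole RefSeq promoter table, which also holds noncoding genes. Per window the shares were 15 of 46 (32.6%) and 744 of 32851 (2.26%). Matches were found for 4 of 8 licensing genes, 5 of 8 helicase genes, 4 of 7 polymerase and primase genes and 2 of 7 clamp and lagging-strand genes, and for none of the 3 fork-protection and 5 nucleotide-supply genes with a window. Base composition was not matched between these sets, and a match is a description of letters, not of binding.

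Summed over the 47 genes, replication transcripts stood at 5962 CPM ± 469.3 in P6gonocyte (SD, n = 4), 5251 ± 389.4 in KITpos (n = 5), 4665 ± 238.9 in GFRA1pos (n = 4) and 3209 ± 109.8 in GFRA1neg (n = 4). Every GFRA1neg library, at 3114 to 3360 CPM, lay below every library of the other groups, of which the lowest had 4307. KITpos libraries (4789 to 5753) overlapped narrowly with P6gonocyte (5626 to 6650) and with GFRA1pos (4307 to 4802). GFRA1neg had the lowest mean for 41 of the 47 genes, against 19.5% of all genes tested, and the highest for none. The highest mean was in P6gonocyte for 24 genes (20.3% of all genes tested), in KITpos for 21 (34.6%) and in GFRA1pos for 2. In bulk samples, fewer cells of a type and less RNA per cell cannot be told apart.

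**Figure D1:**
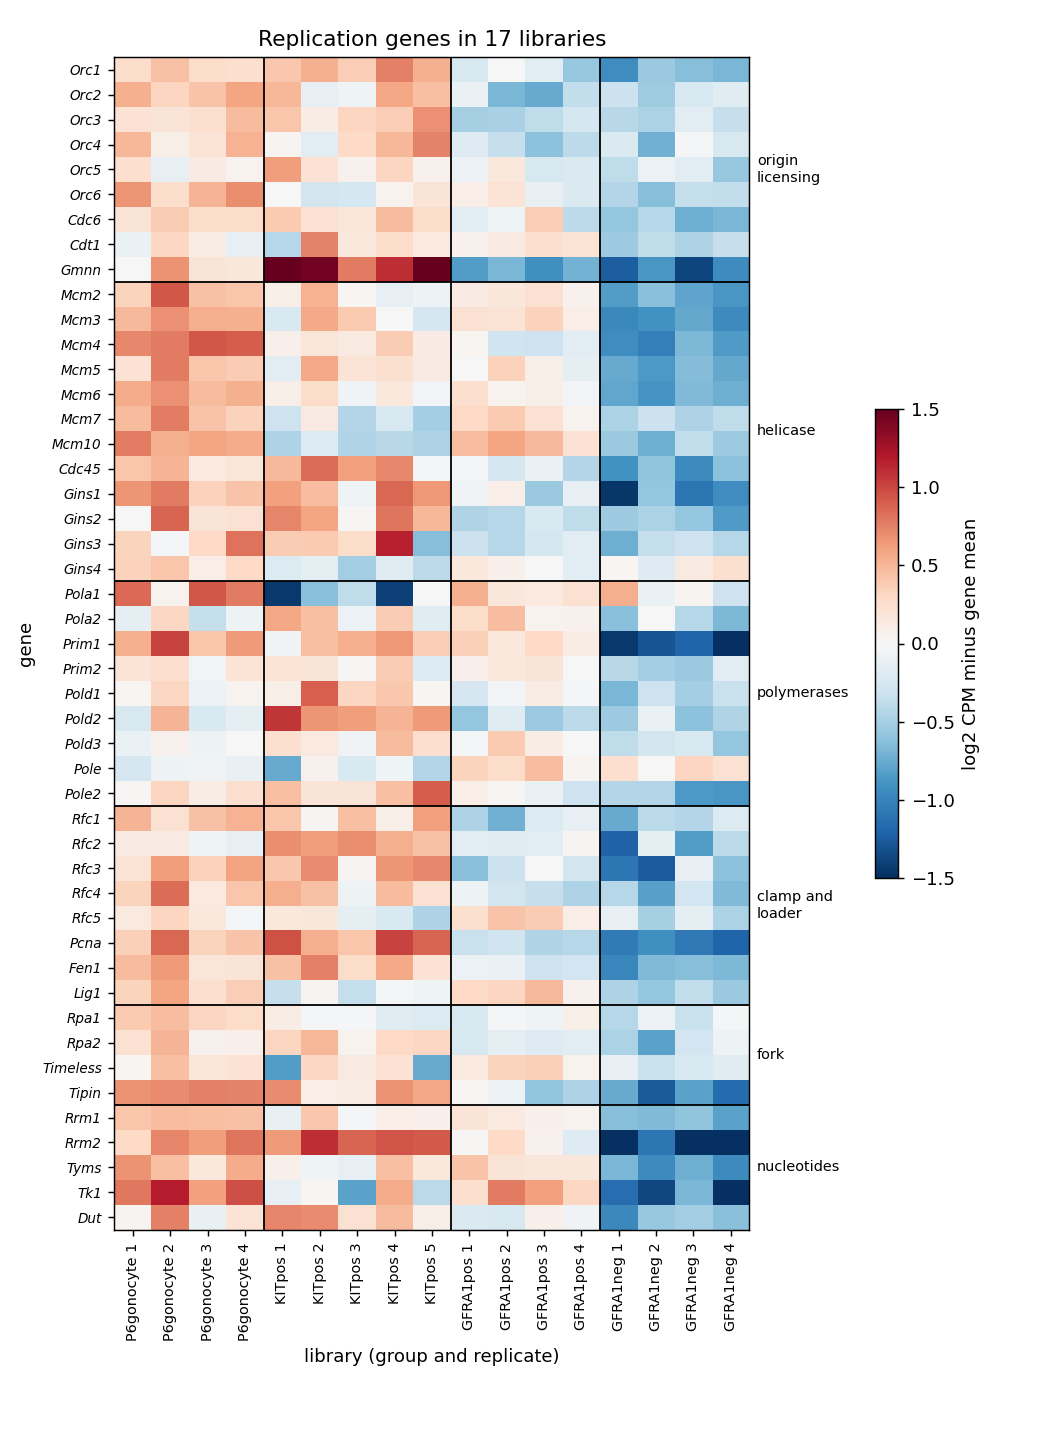
Level of each of the 47 genes (rows, grouped by role) in each of the 17 libraries (columns, by group), as the difference in log2 CPM from the mean of the gene over libraries, with colours that end at 1.5 on either side. The GFRA1neg columns are the lowest for 41 of 47 genes by group mean, and the exceptions are Orc2, Orc3 and Orc4 (lowest in GFRA1pos) and Gins4, Pola1 and Pole (lowest in KITpos).

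Differences were tested with edgeR on all 17 libraries, with p-values adjusted over all 15451 genes and a gene called at an adjusted p under 0.05. Among the 4 groups, 46 of the 47 genes differed, where 73.5% of all genes did. The exception was Timeless (adjusted p = 0.12). In GFRA1pos against GFRA1neg, 27 of 47 were called higher (7.3% of all genes tested) and 0 lower (6.84%), and the median log2 fold change was 0.54, against -0.04 over all genes. At an unadjusted p under 0.05 the count of lower genes was also 0, as it was by DESeq2 and by limma voom. The other 20 were not called. In KITpos against GFRA1neg, 39 were higher (22.1%) and 3 lower (23%), with a median of 0.87 against 0.03 over all genes. In P6gonocyte against GFRA1neg, 40 were higher (18.8%) and 0 lower (24.9%), with a median of 0.92 against -0.09. At an unadjusted p under 0.05, 1 gene (Pole) was lower there, and DESeq2 and limma voom called 0.

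Between the 3 groups with more replication RNA there were calls in both directions, though only 1 lower call in P6gonocyte against GFRA1pos. In KITpos against GFRA1pos, 24 of 47 genes were higher (24.9% of all genes tested) and 8 lower (23.7%), with a median of 0.36 against 0.07 over all genes. In P6gonocyte against GFRA1pos, 23 were higher (17.3%) and 1 lower (21.9%), with a median of 0.41 against -0.05. In P6gonocyte against KITpos, 14 were higher (21.8%) and 3 lower (27.3%), with a median of 0.03 against -0.09, and 30 were not called. In either direction 27 genes were called in GFRA1pos against GFRA1neg (14.1% of all genes tested), 42 in KITpos against GFRA1neg (45.1%), 40 in P6gonocyte against GFRA1neg (43.6%), 32 in KITpos against GFRA1pos (48.6%), 24 in P6gonocyte against GFRA1pos (39.2%) and 17 in P6gonocyte against KITpos (49.1%). The comparisons share libraries, so their counts are not independent.

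Without the spermatid-high libraries, the 3 with the most spermatid transcripts in their adult groups, a choice made after the data were seen, the counts of higher genes were 19 in GFRA1pos and 38 in KITpos against GFRA1neg and 40 in P6gonocyte against GFRA1neg. In KITpos against GFRA1pos they were then 21 higher and 5 lower. Without replicate 2 of P6gonocyte, 37 genes were higher in P6gonocyte than in GFRA1neg and 20 higher than in GFRA1pos, and against KITpos 13 were higher and 6 lower. The shares of all genes called in these refits, and in those described at the end, are not given here. A change in these counts therefore cannot be told apart from a general change in the number of calls. Whether counting used strand is not given, so reads of overlapping genes may be mixed. In the GENCODE annotation 7 of the 47 share at least 10% of their exon bases with another gene, and 6 have a near-identical copy elsewhere in the genome. Among the 35 genes with neither, 19 were higher and 0 lower in GFRA1pos against GFRA1neg, 29 and 3 in KITpos against GFRA1neg, and 28 and 0 in P6gonocyte against GFRA1neg. The counts of 0 lower stood at 0 and 1 at an unadjusted p under 0.05.

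**Figure D2:**
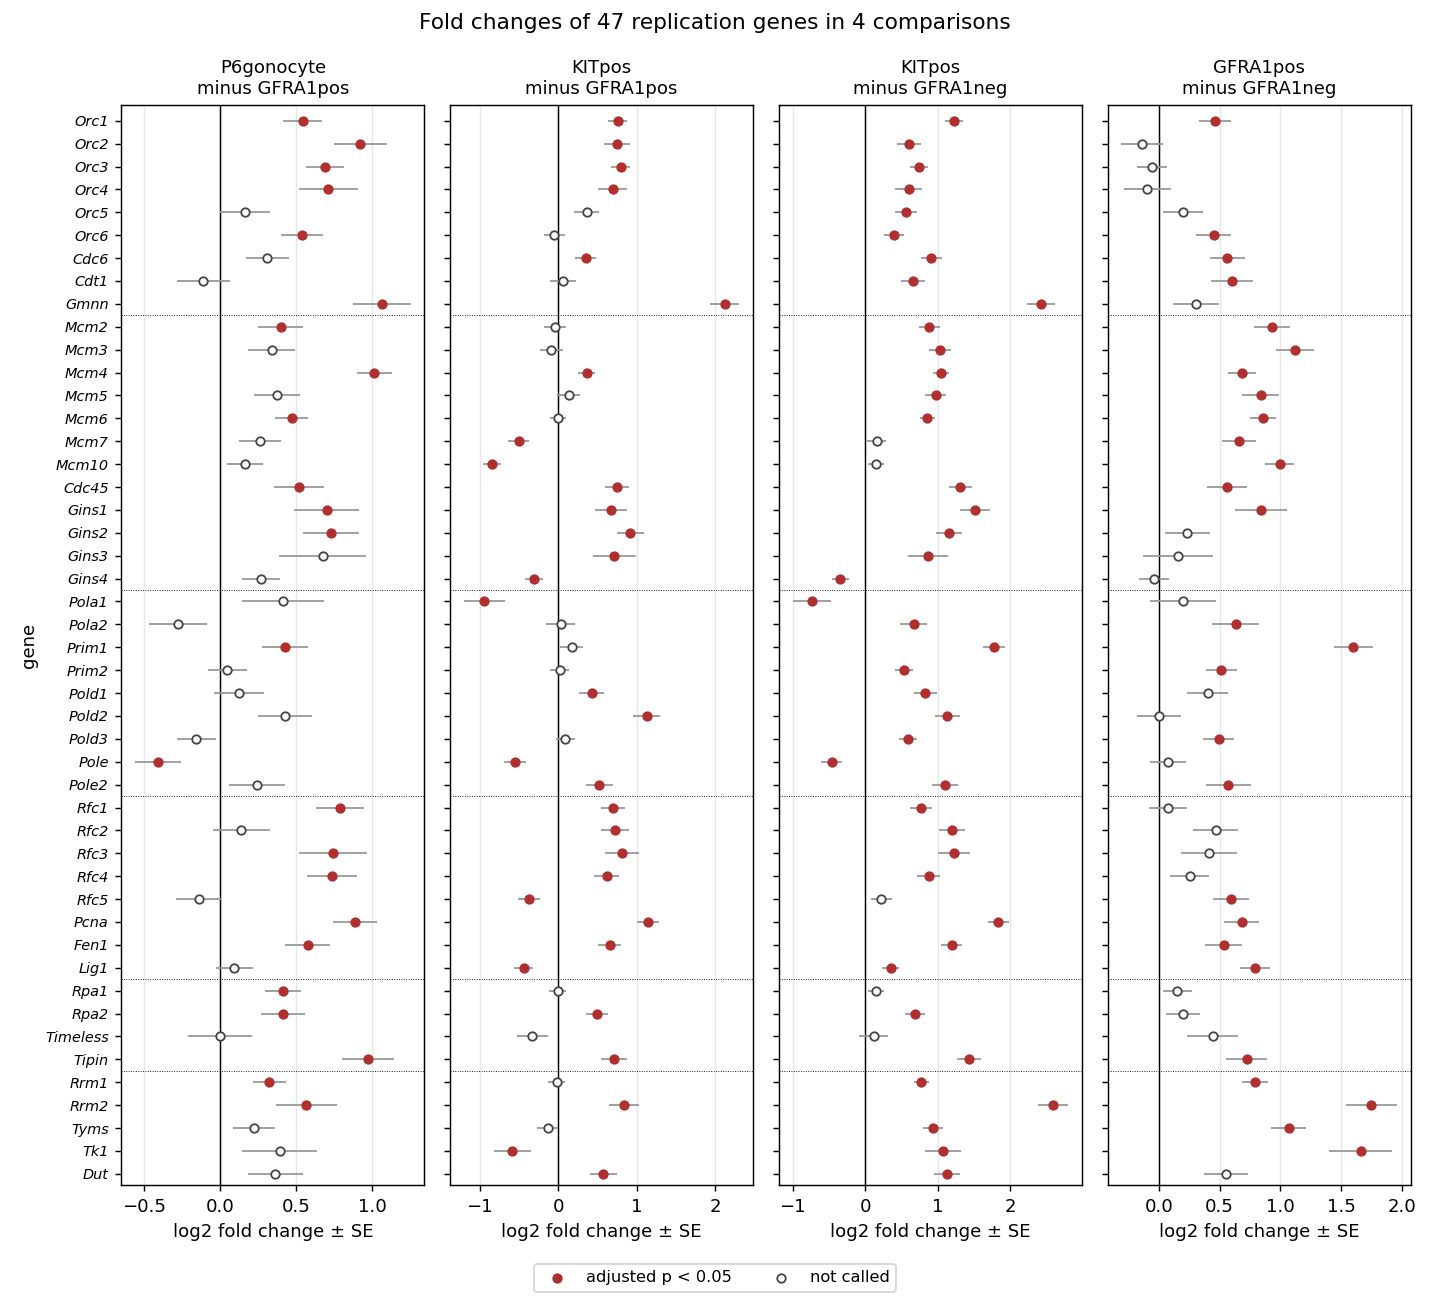
Log2 fold change of each of the 47 genes with its standard error (bars) in 4 comparisons, with filled points where the adjusted p was under 0.05 and dotted lines between roles. Filled points lie right of 0 for 23 genes in P6gonocyte minus GFRA1pos, 24 in KITpos minus GFRA1pos, 39 in KITpos minus GFRA1neg and 27 in GFRA1pos minus GFRA1neg, and left of 0 for 1, 8, 3 and 0 genes in the same comparisons.

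Of the licensing genes, Gmnn, which encodes the Cdt1 inhibitor geminin, differed most. It had 37.1, 59.3, 42.4 and 41.9 CPM in P6gonocyte, 112, 101, 63.7, 79.8 and 114 in KITpos, 20.9, 23.03, 19.6 and 22.8 in GFRA1pos and 15.8, 20.2, 14.3 and 19.4 in GFRA1neg. Every KITpos library was above every P6gonocyte library, and both were above all GFRA1pos and GFRA1neg libraries, which overlapped. Gmnn was 4.35-fold higher in KITpos than in GFRA1pos (log2 2.12 ± 0.19, SE; adjusted p = 3.3e-08) and lower in P6gonocyte than in KITpos (log2 -1.06 ± 0.18, adjusted p = 0.00011). GFRA1pos and GFRA1neg were not called different (0.31 ± 0.19, adjusted p = 0.33).

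Cdt1, the loader that geminin holds back, had 50.96, 68.1, 59.3 and 50.3 CPM in P6gonocyte, 40.6, 91.6, 61.1, 66.3 and 60.6 in KITpos, 57.5, 60.1, 65.5 and 63.2 in GFRA1pos and 37.5, 41.98, 39.6 and 43.04 in GFRA1neg. GFRA1neg was the low group, apart from replicate 1 of KITpos, which lay among its libraries. Cdt1 was higher in GFRA1pos than in GFRA1neg (0.60 ± 0.18, adjusted p = 0.027), a call that was lost on leaving out replicate 2 or 3 of GFRA1pos or replicate 1 or 3 of GFRA1neg. KITpos and GFRA1pos differed by 0.06 ± 0.17 (adjusted p = 0.8).

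Library size cancels in the ratio of Cdt1 to Gmnn counts within a library, and the ratio was compared by exact two-sided permutation tests, adjusted over 6 tests. Its log2 was 0.35 ± 0.14 in P6gonocyte, -0.57 ± 0.60 in KITpos, 1.51 ± 0.15 in GFRA1pos and 1.23 ± 0.18 in GFRA1neg (SD; n = 5 in KITpos and 4 elsewhere). Counts are not scaled for transcript length, so a log2 of 0 does not mark equal levels. Per kilobase, Gmnn exceeded Cdt1 in KITpos (83.4 against 29.3 CPM) and in P6gonocyte (40.1 against 26.1). Cdt1 exceeded Gmnn in GFRA1pos (28.14 against 19.15) and in GFRA1neg (18.5 against 15.5). The log2 ratio of all 5 KITpos libraries, from -1.46 to -0.06, lay below that of every other library. The difference was -1.80 between KITpos and GFRA1neg (exact p = 0.00794, adjusted 0.024) and -1.16 between P6gonocyte and GFRA1pos (exact p = 0.0286, adjusted 0.043), each p being the smallest that these library numbers allow. Without any 1 library of GFRA1pos the difference from P6gonocyte missed the threshold (adjusted p = 0.057, by exact permutation). Between GFRA1pos and GFRA1neg it was 0.28 (exact p = 0.0857, adjusted 0.1).

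Orc1 encodes an ATPase subunit of the origin recognition complex, and its promoter holds 1 E2F-type match. It had 113, 128, 114 and 113 CPM in P6gonocyte, 125, 136, 122, 159.5 and 137 in KITpos, 79.8, 93.99, 83.6 and 63.4 in GFRA1pos and 49.4, 64.1, 60.4 and 58.7 in GFRA1neg. KITpos and P6gonocyte overlapped and lay above both Kit-negative groups, and GFRA1pos overlapped with GFRA1neg through its replicate 4. Orc1 was 2.33-fold higher in KITpos than in GFRA1neg (1.22 ± 0.13, adjusted p = 3e-07) and 1.38-fold higher in GFRA1pos than in GFRA1neg (0.46 ± 0.13, adjusted p = 0.021). The call against GFRA1neg in GFRA1pos was lost without the 3 spermatid-high libraries and on leaving out replicate 2 or 3 of GFRA1pos or replicate 1 of GFRA1neg, and an antisense gene overlaps 10.8% of its exon bases. The flattest licensing gene was Orc5, another subunit, with 31.4, 24.3, 28.7 and 27.4 CPM in P6gonocyte, 40.9, 30.6, 27.6, 32.9 and 27.7 in KITpos, 24.8, 29.5, 22.3 and 22.7 in GFRA1pos and 20.3, 24.8, 23.6 and 17.9 in GFRA1neg. Its groups overlapped, except that KITpos lay above GFRA1neg (0.56 ± 0.16, adjusted p = 0.0063), which was its one call.

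As a set the 6 subunits of the origin recognition complex were called higher in KITpos against GFRA1neg in 6 of 6 cases (22.1% of all genes tested), in P6gonocyte against GFRA1neg in 5 (18.8%), and in GFRA1pos against GFRA1neg in 2, Orc1 and Orc6 (7.3%). The Orc6 call in GFRA1pos was lost without the spermatid-high libraries and on leaving out any of 8 single libraries, each of GFRA1neg among them. The Orc6 call in KITpos was lost without the spermatid-high libraries, in the fit of 2 groups only and without replicate 2 of GFRA1neg or replicate 5 of KITpos. The Orc4 calls in P6gonocyte and in KITpos against GFRA1neg were lost without replicate 2 of GFRA1neg. Orc2, Orc3 and Orc4 had their lowest mean in GFRA1pos, with differences from GFRA1neg of -0.14 ± 0.17, -0.06 ± 0.12 and -0.10 ± 0.19 that were not called. Orc2 shares 29.8% of its exon bases with the opposite-strand gene Nif3l1. Per kilobase of transcript the subunits stood at unequal levels. Orc3 had 67.6 CPM per kilobase in P6gonocyte and 43.5 in GFRA1neg, Orc6 had 62.3 in P6gonocyte and 31.3 in GFRA1neg, and Orc4 had 10.2 in P6gonocyte and 6.67 in GFRA1neg. Cdc6, the ATPase that brings Cdt1 and the MCM ring to origins, averaged 52.2 CPM in P6gonocyte, 53.6 in KITpos, 42.0 in GFRA1pos and 28.4 in GFRA1neg and was called higher in each other group than in GFRA1neg, in GFRA1pos not without its replicate 3.

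**Figure D3:**
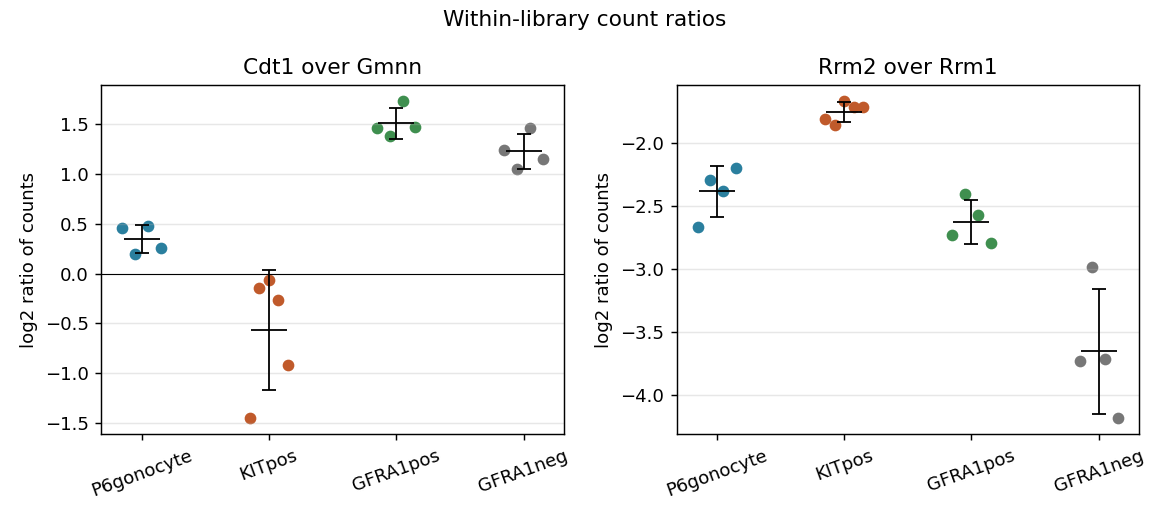
Log2 ratio of Cdt1 to Gmnn counts and of Rrm2 to Rrm1 counts in each library (points) with the group mean and SD (bars). The 5 KITpos libraries are the lowest for Cdt1 to Gmnn, and the GFRA1neg libraries are the lowest for Rrm2 to Rrm1. Counts are not scaled for transcript length, so 0 does not mark equal levels.

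Among helicase genes, all 6 subunits of the MCM ring, Mcm2 to Mcm7, were higher in GFRA1pos than in GFRA1neg (log2 0.66 to 1.12). All 6 were also higher in P6gonocyte than in GFRA1neg (0.93 to 1.70). Of all genes tested, 7.3% were higher in the first comparison and 18.8% in the second. At a threshold of 1.5-fold, only Mcm3 of the 6 was still called in the first comparison, and all 6 were in the second. In both comparisons the libraries did not overlap for any of the 6. Over the 47 genes the libraries of a pair of groups did not overlap for 30 in GFRA1pos against GFRA1neg (23.3% of all genes tested), 33 in KITpos against GFRA1neg (33.8%), 42 in P6gonocyte against GFRA1neg (44.8%), 22 in KITpos against GFRA1pos (37.2%), 26 in P6gonocyte against GFRA1pos (41.5%) and 14 in P6gonocyte against KITpos (35.9%). In KITpos against GFRA1neg 5 of the 6 ring subunits were higher (22.1% of all genes tested) and Mcm7 was not called. Mcm4 had 192, 200.2, 223 and 219 CPM in P6gonocyte, 124, 132, 129, 153 and 127 in KITpos, 119, 95.1, 94.1 and 104 in GFRA1pos and 61.4, 57.6, 73.2 and 65.2 in GFRA1neg. The 4 groups did not overlap, with GFRA1neg lowest, then GFRA1pos, KITpos and P6gonocyte, and all 6 comparisons were called. Mcm4 was 3.24-fold higher in P6gonocyte than in GFRA1neg (1.70 ± 0.12, adjusted p = 1.9e-08) and 1.29-fold higher in KITpos than in GFRA1pos (0.37 ± 0.11, adjusted p = 0.0092).

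Mcm6, with 3 E2F-type matches in its promoter, had 365, 400.2, 345 and 359 CPM in P6gonocyte, 262, 299.9, 239, 278 and 242 in KITpos, 295, 258, 264 and 242 in GFRA1pos and 144, 134, 157 and 149 in GFRA1neg. P6gonocyte was above all adult libraries, KITpos and GFRA1pos lay in one range, and GFRA1neg was apart and lowest. Mcm6 differed by 0.86 ± 0.11 between GFRA1pos and GFRA1neg (adjusted p = 2.2e-05), and the difference between KITpos and GFRA1pos was within its SE of 0.10 (adjusted p = 0.99). Mcm2, Mcm3 and Mcm5 had their lowest mean in GFRA1neg and their highest mean in P6gonocyte. P6gonocyte was not called different from GFRA1pos for Mcm3 (adjusted p = 0.085) or Mcm5 (adjusted p = 0.053). Nor was it called different from KITpos for Mcm5 (adjusted p = 0.16). The Mcm2 call of P6gonocyte against GFRA1pos (adjusted p = 0.037) was lost without replicate 2 of P6gonocyte, any single GFRA1pos library or the spermatid-high libraries. Mcm2 averaged 354 CPM in P6gonocyte and 140.5 in GFRA1neg, Mcm3 266 in P6gonocyte and 96.6 in GFRA1neg, and Mcm5 214 in P6gonocyte and 91.9 in GFRA1neg.

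Mcm7 was the subunit with a lower level in KITpos than in GFRA1pos by the test. It had 266, 327, 258 and 244 CPM in P6gonocyte, 155, 211, 141, 162 and 135 in KITpos, 237, 251, 225 and 199 in GFRA1pos and 137, 153, 139.6 and 147 in GFRA1neg. KITpos overlapped with GFRA1neg and lay below GFRA1pos except for its replicate 2. Mcm7 was lower in KITpos than in GFRA1pos (-0.50 ± 0.13, adjusted p = 0.0032), and KITpos and GFRA1neg differed by 0.16 ± 0.13 (adjusted p = 0.35). A near copy of Mcm7 in the genome, Gm5487, has no row in the count table.

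Mcm10, which binds the ring and helps to activate it, had 94.1, 80.6, 83.6 and 81.8 CPM in P6gonocyte, 40.2, 48.1, 40.5, 41.5 and 40.2 in KITpos, 76.2, 83.8, 77.99 and 64.4 in GFRA1pos and 37.6, 33.4, 42.9 and 38.1 in GFRA1neg. P6gonocyte and GFRA1pos formed a high range and KITpos and GFRA1neg a low one, with no overlap between the 2 ranges. Mcm10 was 1.99-fold higher in GFRA1pos than in GFRA1neg (0.99 ± 0.12, adjusted p = 1.5e-05) and lower in KITpos than in GFRA1pos (-0.84 ± 0.11, adjusted p = 5.7e-06). P6gonocyte exceeded KITpos by 1.01 ± 0.11 (adjusted p = 1.5e-06). Per kilobase, the mean of Mcm2 to Mcm7 was 5.08 times the Mcm10 level in P6gonocyte, 7.28 times in KITpos, 4.22 times in GFRA1pos and 4.65 times in GFRA1neg.

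**Figure D4:**
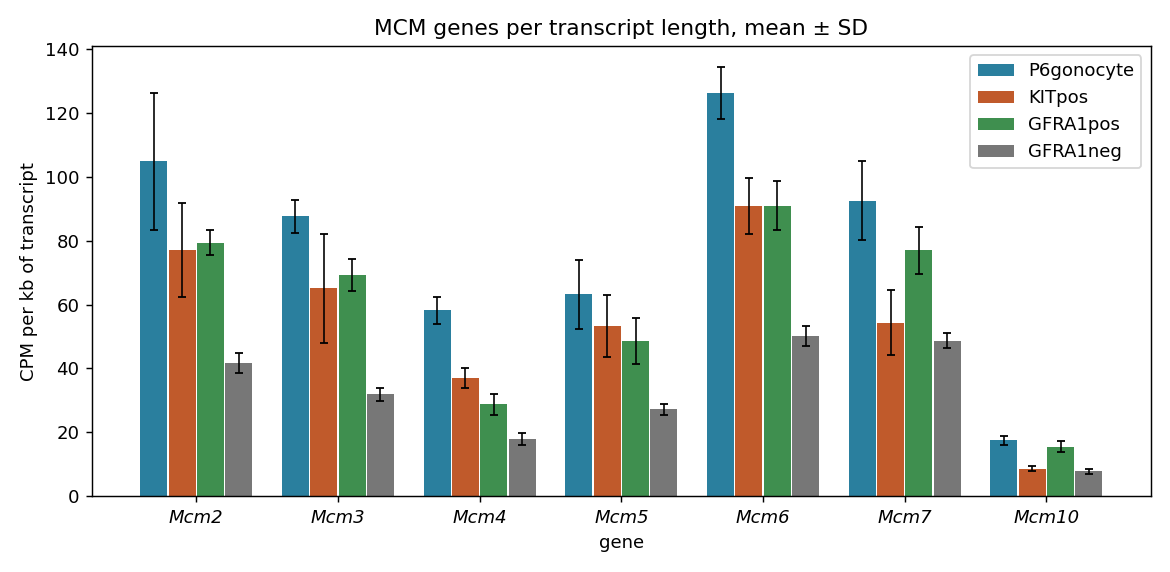
Mean CPM per kilobase of transcript for Mcm2 to Mcm7 and Mcm10 in the 4 groups, with the SD over libraries (bars). In every group Mcm6 is the highest and Mcm4 the lowest of Mcm2 to Mcm7, and Mcm10 lies below all of them.

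Within the ring the order per kilobase had the same ends in each group, with Mcm6 highest and Mcm4 lowest. The pair stood at 126 and 58.2 CPM per kilobase in P6gonocyte, 90.8 and 37.1 in KITpos, 90.9 and 28.8 in GFRA1pos and 50.2 and 17.9 in GFRA1neg. Their ratio was 2.17 in P6gonocyte, 2.45 in KITpos, 3.16 in GFRA1pos and 2.80 in GFRA1neg. One principal transcript per gene set the lengths, so a different isoform or uneven amplification would change these values.

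Cdc45, which joins the MCM ring and GINS in the active helicase, averaged 108 CPM ± 13.5 in P6gonocyte, 127 ± 26.5 in KITpos, 75.2 ± 9.1 in GFRA1pos and 50.9 ± 6.6 in GFRA1neg (SD, n = 4, with n = 5 in KITpos). It was called higher in P6gonocyte, KITpos and GFRA1pos than in GFRA1neg, and in KITpos and P6gonocyte than in GFRA1pos. The call of GFRA1pos against GFRA1neg was lost without the spermatid-high libraries and on leaving out replicate 1 or 3 of either group, and that of P6gonocyte against GFRA1pos without replicate 4 of GFRA1pos. The 4 GINS subunits had different calls. Gins1 was higher in KITpos than in GFRA1neg by 1.51 ± 0.21 (adjusted p = 9.5e-06) and Gins2 by 1.16 ± 0.18 (adjusted p = 2.7e-05), though 67.3% of the exon bases of Gins2 lie in the opposite-strand gene Gse1.

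Gins3 had the lowest level per kilobase of the 47 genes in P6gonocyte, GFRA1pos and GFRA1neg, and Pola1 had it in KITpos. Gins3 had 11.2, 8.78, 10.97 and 15.7 CPM in P6gonocyte, 11.6, 11.7, 10.8, 19.96 and 5.72 in KITpos, 7.1, 6.64, 7.45 and 7.94 in GFRA1pos and 5.36, 6.96, 7.16 and 6.61 in GFRA1neg. KITpos was spread over nearly the whole range, with its replicate 4 the highest of all libraries and its replicate 5 among the lowest. Gins3 was called higher in KITpos than in GFRA1neg (0.87 ± 0.28, adjusted p = 0.014), a call lost without replicate 4 of KITpos and in the fit of 2 groups only. Gins4 ordered its groups otherwise, with 159, 168, 134 and 154 CPM in P6gonocyte, 109, 114, 87.3, 110.2 and 95.6 in KITpos, 139.6, 132, 126 and 112 in GFRA1pos and 128, 109.5, 138 and 148 in GFRA1neg. KITpos was lowest and P6gonocyte highest, without overlap between these 2 groups, and the Kit-negative groups lay between and overlapped with each other and with KITpos. Gins4 was lower in KITpos than in GFRA1neg (-0.34 ± 0.12, adjusted p = 0.023) and than in GFRA1pos (-0.31 ± 0.12, adjusted p = 0.037), the call against GFRA1neg lost without replicate 4 of GFRA1pos, replicate 3 or 4 of GFRA1neg or replicate 3 of KITpos and that against GFRA1pos without replicate 1, 2 or 3 of GFRA1pos, replicate 3 or 5 of KITpos or the spermatid-high libraries, and higher in P6gonocyte than in KITpos (0.58 ± 0.12, adjusted p = 0.00057). In P6gonocyte the level per kilobase was 114 CPM for Gins4 and 4.63 for Gins3.

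Of the polymerase and primase genes, Prim1, the catalytic primase subunit that makes the RNA primer, had the largest difference between the Kit-negative groups. It had 96.8, 135, 89.01 and 104 CPM in P6gonocyte, 64.7, 91.3, 97.8, 105 and 86.8 in KITpos, 85.97, 74.8, 82.4 and 72.6 in GFRA1pos and 24.6, 27.3, 29.2 and 22.9 in GFRA1neg. GFRA1neg was far below every other library, and the other groups overlapped except for P6gonocyte and GFRA1pos. Prim1 was 3.04-fold higher in GFRA1pos (1.60 ± 0.16, adjusted p = 1.2e-06), 3.43-fold higher in KITpos (1.78 ± 0.15, adjusted p = 3.3e-08) and 4.08-fold higher in P6gonocyte (2.03 ± 0.16, adjusted p = 8.5e-08) than in GFRA1neg. Its partner Prim2 had means of 94.7 CPM in P6gonocyte, 92.8 in KITpos, 91.5 in GFRA1pos and 64.0 in GFRA1neg. Prim2 was higher in GFRA1pos than in GFRA1neg by 0.52 ± 0.13 (adjusted p = 0.011), a call lost without the spermatid-high libraries.

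Pola1, the catalytic subunit of DNA polymerase alpha, was lower in KITpos than in each other group. It had 54.3, 31.3, 57.6 and 51.7 CPM in P6gonocyte, 11.1, 19.5, 23.1, 11.4 and 30.3 in KITpos, 43.6, 33.9, 33.3 and 35.4 in GFRA1pos and 44.1, 28.1, 30.96 and 24.3 in GFRA1neg. KITpos was below every P6gonocyte and GFRA1pos library and overlapped with GFRA1neg through its replicate 5, and the other groups overlapped. Pola1 was lower in KITpos than in GFRA1pos (-0.94 ± 0.26, adjusted p = 0.0058) and than in GFRA1neg (-0.74 ± 0.26, adjusted p = 0.027), and higher in P6gonocyte than in KITpos (1.35 ± 0.26, adjusted p = 0.00037). The difference from GFRA1neg was lost on leaving out replicate 1 or 4 of KITpos, replicate 1 of GFRA1neg or the spermatid-high libraries, and in the fit of 2 groups only. Pola1 is on the X chromosome.

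Pola2, the regulatory subunit of the same polymerase, had 60.96, 83.5, 52.6 and 63.8 CPM in P6gonocyte, 100.3, 92.3, 63.2, 87.7 and 59.4 in KITpos, 81.8, 92.9, 70.04 and 70.3 in GFRA1pos and 43.5, 67.4, 49.9 and 42.05 in GFRA1neg. GFRA1neg was lowest and did not overlap with GFRA1pos, and all other pairs of groups overlapped. Pola2 differed by 0.67 ± 0.18 between KITpos and GFRA1neg (adjusted p = 0.0061), the opposite sign to Pola1, and by 0.03 ± 0.18 between KITpos and GFRA1pos (adjusted p = 0.9). Whether the 2 subunits differ from each other in these contrasts was not tested.

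Pole, the catalytic subunit of the leading-strand polymerase epsilon, was the one listed gene with its 2 highest means in the Kit-negative groups. It had 300.1, 339, 343 and 332 CPM in P6gonocyte, 211, 374, 304, 340.3 and 263 in KITpos, 449, 431, 492 and 369 in GFRA1pos and 427, 358, 445 and 418 in GFRA1neg. Replicate 1 of KITpos was lowest of all and GFRA1pos replicate 3 highest, and P6gonocyte lay below all libraries of both Kit-negative groups. Pole was lower in KITpos than in GFRA1neg (-0.47 ± 0.14, adjusted p = 0.011) and than in GFRA1pos (-0.54 ± 0.14, adjusted p = 0.0034). It was also lower in P6gonocyte than in GFRA1pos (-0.41 ± 0.15, adjusted p = 0.037), a call lost on leaving out any P6gonocyte library or replicate 1, 2 or 3 of GFRA1pos. Pole2, a smaller subunit of that polymerase, was higher in KITpos than in GFRA1neg by 1.10 ± 0.18 (adjusted p = 5.6e-05).

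Pold2, an accessory subunit of polymerase delta, had 47.2, 79.96, 47.6 and 51.1 CPM in P6gonocyte, 118, 88.6, 86.4, 79.99 and 86.96 in KITpos, 37.5, 49.5, 38.3 and 42.6 in GFRA1pos and 38.4, 52.1, 36.4 and 40.8 in GFRA1neg. KITpos was at or above 80.0 in all libraries, level with replicate 2 of P6gonocyte and above all the rest, while the Kit-negative groups overlapped fully. Pold2 was higher in KITpos than in GFRA1neg (1.13 ± 0.17, adjusted p = 2.6e-05), lower in P6gonocyte than in KITpos (-0.70 ± 0.17, adjusted p = 0.0023), and at 0.00 ± 0.18 between GFRA1pos and GFRA1neg (adjusted p = 1.0). Pold1, the catalytic subunit, and Pold3, another accessory one, were also higher in KITpos than in GFRA1neg, by 0.83 ± 0.16 and 0.59 ± 0.12.

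Pcna, the sliding clamp, had the highest level per kilobase of the 47 genes in P6gonocyte (188 CPM) and KITpos (225 CPM), where Lig1 led in GFRA1pos (113.5 CPM) and Gins4 in GFRA1neg (96.95 CPM). Pcna had 256, 363, 252 and 269.9 CPM in P6gonocyte, 387, 291, 266, 402 and 365 in KITpos, 158, 163, 146 and 148 in GFRA1pos and 95.6, 106, 94.9 and 86.8 in GFRA1neg. KITpos and P6gonocyte overlapped and were above both Kit-negative groups, and GFRA1pos was above GFRA1neg without overlap. Pcna was 3.57-fold higher in KITpos than in GFRA1neg (1.83 ± 0.14, adjusted p = 1e-08), 2.98-fold higher in P6gonocyte (1.57 ± 0.15, adjusted p = 5e-07) and 1.61-fold higher in GFRA1pos (0.68 ± 0.14, adjusted p = 0.0031). A near-identical copy, Pcna-ps2, has no row of its own in the count table, so reads from it may be included. Fen1, the nuclease that trims Okazaki fragments, had 44.9, 50.1, 36.6 and 37.1 CPM in P6gonocyte, 43.96, 54.4, 39.2, 47.8 and 37.6 in KITpos, 30.3, 30.3, 25.96 and 26.4 in GFRA1pos and 16.5, 20.4, 20.8 and 20.3 in GFRA1neg. Its groups stood in the same order as those of Pcna. Fen1 was higher in KITpos than in GFRA1neg (1.19 ± 0.15, adjusted p = 2.4e-06), and 78.8% of its exon bases overlap the predicted gene Gm10143.

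Lig1, the ligase that joins the fragments, had 369, 443, 349 and 379 CPM in P6gonocyte, 231, 301, 229, 289 and 279.6 in KITpos, 359, 367, 408 and 306 in GFRA1pos and 212, 195, 226 and 198 in GFRA1neg. Here P6gonocyte and GFRA1pos overlapped as the high groups, KITpos was below both without overlap, and GFRA1neg was lowest. Lig1 was lower in KITpos than in GFRA1pos (-0.44 ± 0.12, adjusted p = 0.0043) but higher than in GFRA1neg (0.35 ± 0.12, adjusted p = 0.02), and higher in GFRA1pos than in GFRA1neg (0.79 ± 0.12, adjusted p = 0.00022). The call of KITpos against GFRA1neg was lost in the fit of 2 groups only and without replicate 2 or 4 of GFRA1neg.

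The 5 clamp loader genes split. Rfc1, Rfc2, Rfc3 and Rfc4 were higher in KITpos than in GFRA1pos (0.62 to 0.82), and none of them was called between GFRA1pos and GFRA1neg. Rfc2 had 25.6, 25.6, 22.2 and 21.4 CPM in P6gonocyte, 37.7, 36.1, 37.7, 34.1 and 31.5 in KITpos, 20.7, 20.5, 20.7 and 23.98 in GFRA1pos and 10.1, 21.1, 13.1 and 17.7 in GFRA1neg. KITpos was above all other libraries, and the other 3 groups overlapped in part. Rfc2 was lower in P6gonocyte than in KITpos (-0.58 ± 0.18, adjusted p = 0.011), and 15.1% of its exon bases overlap Lat2. Rfc5 had 53.6, 60.5, 54.03 and 48.1 CPM in P6gonocyte, 54.3, 54.7, 43.96, 41.3 and 35.3 in KITpos, 57.2, 65.4, 63.3 and 51.9 in GFRA1pos and 44.7, 34.2, 43.8 and 34.8 in GFRA1neg. GFRA1pos was highest on average and above GFRA1neg without overlap, and KITpos spanned the range between. Rfc5 was higher in GFRA1pos than in GFRA1neg (0.59 ± 0.15, adjusted p = 0.012) and lower in KITpos than in GFRA1pos (-0.37 ± 0.14, adjusted p = 0.038), both calls being lost without the spermatid-high libraries. The call of KITpos against GFRA1pos was also lost on leaving out replicate 1, 2 or 3 of GFRA1pos or replicate 3, 4 or 5 of KITpos. Rfc5 both overlaps another gene (10.7% of exon bases) and has a near copy.

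Tipin and Timeless encode partners in the complex that protects the moving fork, and their transcripts differed in pattern. Tipin had 146, 149.5, 154 and 154 CPM in P6gonocyte, 149, 98.1, 99.1, 146 and 137 in KITpos, 93.3, 86.4, 60.6 and 66.5 in GFRA1pos and 54.00, 38.3, 52.5 and 41.2 in GFRA1neg. GFRA1neg was lowest, GFRA1pos next, and KITpos and P6gonocyte highest with overlap between these 2. Tipin was 3.24-fold higher in P6gonocyte than in GFRA1neg (1.70 ± 0.17, adjusted p = 1.2e-06) and 1.65-fold higher in GFRA1pos than in GFRA1neg (0.72 ± 0.17, adjusted p = 0.0068), the second call being lost without the spermatid-high libraries. Timeless had 40.4, 54.2, 44.9 and 46.04 CPM in P6gonocyte, 22.1, 49.2, 43.4, 46.05 and 23.4 in KITpos, 43.7, 49.97, 50.5 and 40.96 in GFRA1pos and 36.2, 31.4, 33.6 and 34.9 in GFRA1neg. P6gonocyte and GFRA1pos lay above GFRA1neg, whereas in KITpos replicates 1 and 5 were below every other library and the remaining 3 lay in the range of P6gonocyte and GFRA1pos. No comparison was called for Timeless.

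Single-strand DNA is coated by replication protein A. Rpa2, its middle subunit, had 196, 237, 175 and 176 CPM in P6gonocyte, 209, 236, 173, 206 and 208 in KITpos, 142, 151, 146 and 148 in GFRA1pos and 119.9, 95.9, 137 and 159 in GFRA1neg. P6gonocyte and KITpos overlapped above both Kit-negative groups, which overlapped. Rpa2 was higher in KITpos than in GFRA1neg (0.69 ± 0.14, adjusted p = 0.0004), and the difference of 0.20 ± 0.14 between GFRA1pos and GFRA1neg was not called. Rpa1, the large subunit, was called higher in P6gonocyte than in each adult group and in no other comparison, at 129 CPM in P6gonocyte, 96.2 in KITpos, 96.7 in GFRA1pos and 86.9 in GFRA1neg.

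**Figure D5:**
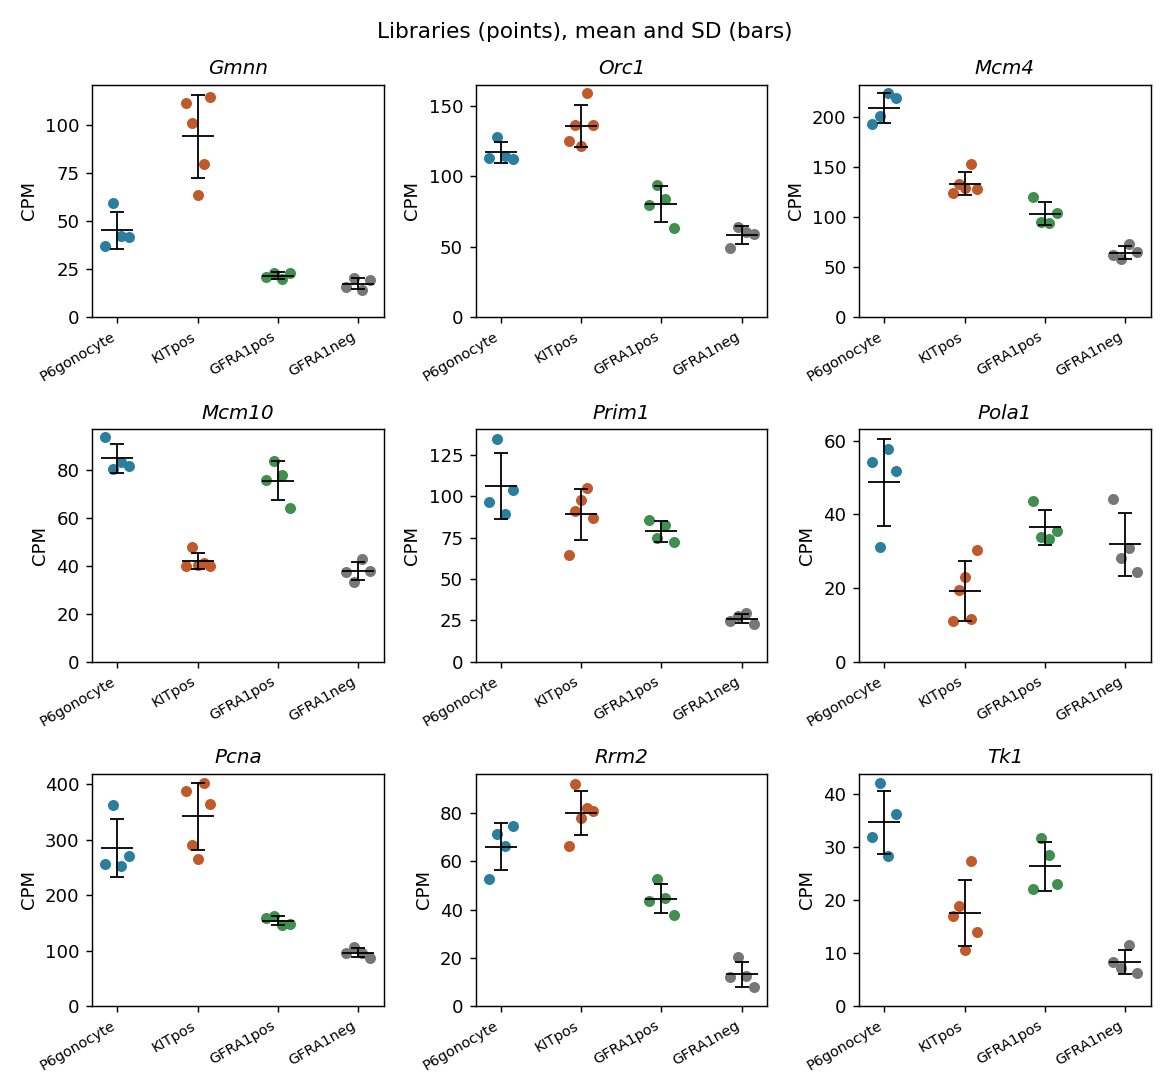
CPM of 9 genes in each library (points), with the mean and SD of the group (bars), on linear axes from 0. GFRA1neg libraries lie apart at the bottom for Prim1, Rrm2 and Mcm4, KITpos and GFRA1neg lie low together for Mcm10, and KITpos has the lowest mean for Pola1.

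Of the nucleotide supply genes, Rrm2 had the largest fold of all 47 genes in each of the 3 comparisons against GFRA1neg. Rrm2, the S-phase subunit of ribonucleotide reductase, had 52.6, 71.2, 66.2 and 74.6 CPM in P6gonocyte, 66.5, 92.1, 78.2, 82.2 and 80.7 in KITpos, 43.5, 52.6, 44.7 and 37.6 in GFRA1pos and 12.1, 20.1, 12.59 and 7.9 in GFRA1neg. GFRA1neg was far below all others, GFRA1pos came next, up to the lowest P6gonocyte library, and KITpos and P6gonocyte overlapped. Rrm2 was 6.03-fold higher in KITpos (2.59 ± 0.21, adjusted p = 1.4e-08), 4.99-fold higher in P6gonocyte (2.32 ± 0.21, adjusted p = 4.3e-07) and 3.36-fold higher in GFRA1pos (1.75 ± 0.21, adjusted p = 1.4e-05) than in GFRA1neg. A near copy of Rrm2, Gm48455, has no row in the count table, so reads from it may be included. Rrm1, the large subunit, had 336, 349, 345 and 343 CPM in P6gonocyte, 234, 334, 248, 270.5 and 266 in KITpos, 289, 279.7, 266 and 262 in GFRA1pos and 162, 159.9, 166 and 145 in GFRA1neg. GFRA1neg was again apart and lowest, KITpos and GFRA1pos lay together, and P6gonocyte was above both. Rrm1 differed by 0.77 ± 0.11 between KITpos and GFRA1neg (adjusted p = 7.9e-06).

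The log2 ratio of Rrm2 to Rrm1 counts was -2.39 ± 0.20 in P6gonocyte, -1.75 ± 0.08 in KITpos, -2.63 ± 0.17 in GFRA1pos and -3.66 ± 0.50 in GFRA1neg (SD; n = 5 in KITpos and 4 elsewhere). Each KITpos library, from -1.86 to -1.67, was above every library of the other groups, and each GFRA1neg library was below them all. The ratio was higher by 1.90 in KITpos than in GFRA1neg (exact p = 0.00794, adjusted 0.024) and by 1.03 in GFRA1pos than in GFRA1neg (exact p = 0.0286, adjusted 0.043), both the smallest p possible. Without any 1 library of GFRA1pos the difference between GFRA1pos and GFRA1neg missed the threshold (adjusted p = 0.086, by exact permutation). Between P6gonocyte and GFRA1pos it was 0.24 (exact p = 0.114, adjusted 0.11).

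Tk1, the S-phase thymidine kinase, had 31.9, 41.96, 28.3 and 36.3 CPM in P6gonocyte, 16.9, 18.9, 10.6, 27.3 and 14.03 in KITpos, 22, 31.7, 28.5 and 23.1 in GFRA1pos and 8.37, 7.2, 11.6 and 6.22 in GFRA1neg. GFRA1neg was lowest, P6gonocyte was above all of KITpos, and KITpos overlapped with both Kit-negative groups. Tk1 was 4.16-fold higher in P6gonocyte (2.06 ± 0.26, adjusted p = 1.2e-05) and 3.16-fold higher in GFRA1pos (1.66 ± 0.26, adjusted p = 0.00019) than in GFRA1neg. It was lower in KITpos than in GFRA1pos (-0.58 ± 0.24, adjusted p = 0.047), a call lost on leaving out any of 11 single libraries or the spermatid-high libraries. Tyms, thymidylate synthase, was higher in GFRA1pos than in GFRA1neg (1.07 ± 0.14, adjusted p = 4.2e-05). Dut, which removes dUTP, had 70.1, 115, 63.03 and 78.8 CPM in P6gonocyte, 114, 112, 79.9, 94.7 and 72.8 in KITpos, 58.5, 57.6, 71.95 and 65.8 in GFRA1pos and 34.9, 46.1, 47.8 and 44.2 in GFRA1neg. GFRA1neg lay below the others without overlap, and the other groups overlapped except for KITpos and GFRA1pos. Dut was 1.13 ± 0.18 higher in KITpos than in GFRA1neg (adjusted p = 3.8e-05), and the difference between GFRA1pos and GFRA1neg just missed the threshold (0.55 ± 0.18).

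The order of the group means took several forms, of which the most frequent are given. It was GFRA1neg, GFRA1pos, P6gonocyte, KITpos from low to high for 17 genes, among them Gmnn, Orc1, Pcna, Fen1 and Rrm2. For 12 genes it was GFRA1neg, KITpos, GFRA1pos, P6gonocyte, among them Mcm6, Mcm7, Mcm10, Lig1, Rrm1 and Tk1, and for 8 it was GFRA1neg, GFRA1pos, KITpos, P6gonocyte, among them Mcm4, Prim1 and Tipin. Each other order held for at most 3 genes. Neighbours in these orders often did not differ, and how often all genes tested took each order was not counted.

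A further list held 37 other replication genes. In GFRA1pos against GFRA1neg 10 were higher (7.3% of all genes tested) and 1 lower (6.84%), and the median log2 fold change was 0.15, against 0.54 for the 47. Pclaf, a PCNA-binding factor, had 25.1 CPM ± 1.8 in GFRA1pos and 4.06 ± 0.92 in GFRA1neg (2.63 ± 0.29, adjusted p = 4.8e-06), and Dscc1, of an alternative clamp loader, had 11.8 ± 3.3 in GFRA1pos and 2.67 ± 0.96 in GFRA1neg (2.12 ± 0.30). The 1 lower gene was Top1, topoisomerase I, at 33.2 ± 6.0 in GFRA1pos and 64.0 ± 9.3 in GFRA1neg (-0.95 ± 0.22). In KITpos against GFRA1neg 23 were higher (22.1%) and 3 lower (23%), among them Slbp, the histone mRNA binding protein (1.501 ± 0.12).

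Samhd1, an enzyme that breaks down deoxynucleotides, was among the lower ones in KITpos, at 78.2 CPM ± 9.2 against 196 ± 35.0 in GFRA1neg (-1.32 ± 0.13). In P6gonocyte against GFRA1neg 23 were higher (18.8% of all genes tested) and 0 lower (24.9%; 1, Chtf8, at an unadjusted p under 0.05, and 0 by DESeq2 or limma voom), with Nasp, a histone chaperone, at 579 CPM ± 67.8 in P6gonocyte and 172 ± 17.1 in GFRA1neg (1.76 ± 0.17). In KITpos against GFRA1pos 23 of the 37 were higher (24.9%) and 5 lower (23.7%), and in P6gonocyte against GFRA1pos 19 (17.3%) and 2 (21.9%). In P6gonocyte against KITpos 6 were higher (21.8%) and 8 lower (27.3%), shares near those of all genes. Dctpp1, a pyrophosphatase that cleans the nucleotide pool, had 63.9 CPM ± 22.3 in P6gonocyte and 198 ± 43.0 in KITpos (-1.63 ± 0.20).

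Of 10 E2F and partner genes, 4 were higher (7.3% of all genes tested) and 0 lower (6.84%) in GFRA1pos against GFRA1neg, and 0 were lower at an unadjusted p under 0.05, by DESeq2 or by limma voom. The 4 higher ones were the activators E2f1 (0.82 ± 0.17) and E2f2 (1.60 ± 0.41) and the atypical repressors E2f7 (0.91 ± 0.15) and E2f8 (1.79 ± 0.28). E2f8 had 37.2 CPM ± 2.6 in GFRA1pos and 10.7 ± 6.5 in GFRA1neg. In KITpos against GFRA1neg 4 were higher (E2f2, E2f5, E2f7 and E2f8, where 22.1% of all genes were) and 2 lower (E2f3 and E2f6, where 23% were), and E2f6, a repressor, had 42.4 CPM ± 9.1 in KITpos and 94.6 ± 13.9 in GFRA1neg (-1.16 ± 0.15). In P6gonocyte against GFRA1neg 5 were higher (18.8%) and 0 lower (24.9%), with 0 lower at an unadjusted p under 0.05 and by the other tools. In P6gonocyte against GFRA1pos 3 were higher (17.3%) and 1 lower (21.9%), in P6gonocyte against KITpos 2 (21.8%) and 3 (27.3%), and in KITpos against GFRA1pos 2 (24.9%) and 4 (23.7%). With 10 genes, these last 3 pairs of counts and those of KITpos against GFRA1neg are not set apart from the shares of all genes. Whether the counts of the other comparisons are set apart was not tested.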

How the data were processed

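Gene counts of 17 libraries of sorted mouse testis germ cells were analysed as deposited. Per the labels' protocols, RNA (5 to 10 ng) was amplified (NuGEN Ovation V2) before paired-end sequencing of 101 bp. The authors deposited whole-number counts per Entrez gene with no normalization, and 83 of 24013 rows matched no symbol. The submitters' processing notes name mm9, Trim Galore, TopHat2 2.0.4, Bowtie2 2.0.0-6, Bowtie, DESeq and DESeq2 without roles; which program counted reads, and whether by strand, is not given in the sources used here. A column spelled with GFP in place of GFR was read as GFRA1pos replicate 1, the title left without a column.

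Groups follow the sample titles. The test was that of edgeR 4.0.16 under R 4.3.3 (TMM scaling, filterByExpr, quasi-likelihood F-test on all 17 libraries, common biological coefficient of variation 0.3), with Benjamini-Hochberg adjustment over 15451 genes, and the step was tested on simulated data. Log2 ratios used a pseudocount of 0.5 and exact permutation tests. Per-kilobase levels used 1 principal GENCODE transcript per gene on GRCm38, and near copies were found with BLAST 2.17.0 (95% identity over 200 bp).

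Genes given by library were, in each role, the 2 with the smallest and the 1 with the largest p over the 4 groups, those called against the main direction, and the genes of the 2 ratios; other lists gave up to 4 of smallest p, of which 1 gene is not reported here. The genes, lists and rules were chosen with earlier results of these data known. Alternatives were scaling by RLE or by the upper quartile, no filter on counts, DESeq2 1.42.0, voom of limma 3.58.1, a floor of 1 CPM in at least 4 libraries, a 1.5-fold threshold, 2 groups only, a replicate block, each library left out, and for the ratios a pseudocount of 1 and medians.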

Additional observations from a re-analysis of the deposited data

Results flagged for a closer look

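Within a group, a library was set aside for a closer look where its gap to the nearest other library was a large share of the range of the group by Dixon's test. Of 188 gene and group combinations 13 were so marked, where chance alone marks about 1 in 20. Replicate 2 of P6gonocyte had 4 of them, all as the highest library of its group. It had 128 CPM of Orc1 (next library 114), 461 of Mcm2 (next 326), 80.0 of Pold2 (next 51.1) and 363 of Pcna (next 269.9). The same library had the highest Sertoli cell markers and the lowest Pou5f1 of its group, and their part in these levels was not tested.

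In KITpos, replicate 2 had 345 CPM of Mcm2 (next library 257) and 48.1 of Mcm10 (next 41.5), replicate 4 had 153 of Mcm4 (next 132), and replicate 1 had 118 of Pold2 (next 88.6). Replicate 4 of P6gonocyte was the highest of its group for Orc3, at 177 CPM (next 151), and replicate 3 the lowest for Prim2, at 82.2 (next 97.9). In GFRA1pos, replicate 4 had 24.0 CPM of Rfc2 (next 20.7) and replicate 1 had 102 of Tyms (next 86.3). In GFRA1neg, replicate 1 was the lowest for Fen1, at 16.5 CPM (next 20.3).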

How the results depend on the processing

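Over the 6 comparisons the 47 genes had 182 calls, of which 0 changed sign under any alternative and 139 were kept in every setting other than the 1.5-fold threshold. That threshold left 6 genes higher in GFRA1pos against GFRA1neg, 24 higher and 0 lower in KITpos against GFRA1neg, 5 and 1 in KITpos against GFRA1pos, 4 and 0 in P6gonocyte against GFRA1pos, 25 higher in P6gonocyte against GFRA1neg, and 2 and 1 in P6gonocyte against KITpos; it asks for a larger change by construction. Same-numbered libraries of GFRA1pos and GFRA1neg correlated by 0.436, 0.49, 0.293 and 0.065 in their deviations, so 3 of 4 pairs passed a limit of 0.1 set for every pair, and 5 of these 8 libraries correlated best with their own number, a hint from the data and not the design. No other 2 groups had more than 2 pairs past the limit, and the numbers were not taken as pairs. In GFRA1pos against GFRA1neg the replicate block gave 29 higher and 0 lower genes, against 27 and 0 without it. It lost 6 of the 182 calls in all and gave 5 lower genes in KITpos against GFRA1pos and 6 in P6gonocyte against KITpos. A fit of 2 groups only, or without the spermatid-high libraries, gave 5 lower in KITpos against GFRA1pos and 1 lower in P6gonocyte against GFRA1neg. Upper-quartile scaling also gave 1 lower in P6gonocyte against GFRA1neg. The cause was not tested.

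Leaving out 1 library at a time gave 20 to 29 higher and 0 lower genes in GFRA1pos against GFRA1neg, 36 to 39 and 2 to 3 in KITpos against GFRA1neg, 21 to 25 and 5 to 8 in KITpos against GFRA1pos, 17 to 25 and 0 to 1 in P6gonocyte against GFRA1pos, 37 to 41 and 0 to 1 in P6gonocyte against GFRA1neg, and 12 to 14 and 3 to 6 in P6gonocyte against KITpos; 44 to 46 genes differed among the 4 groups. The 8 lower genes in KITpos against GFRA1pos became 5 without replicate 2 or 3 of GFRA1pos or replicate 3 or 5 of KITpos. The 3 lower in P6gonocyte against KITpos became 5 without replicate 3 of KITpos and 6 without replicate 2 of P6gonocyte, and the 0 lower in P6gonocyte against GFRA1neg became 1 without replicate 1 of KITpos.

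For Cdt1 to Gmnn the median of libraries gave -1.465 in KITpos against GFRA1neg and -1.105 in P6gonocyte against GFRA1pos, and for Rrm2 to Rrm1 it gave 1.07 in GFRA1pos and 2.01 in KITpos against GFRA1neg, with adjusted p of 0.11 to 0.14. With the replicate block these were -1.708, -1.16, 1.03 and 1.89, where 4 pairs cannot reach the threshold. Leaving out libraries moved the Cdt1 to Gmnn differences from 0.21 to 0.36 (past the threshold without replicate 3 of GFRA1neg) in GFRA1pos and from -1.92 to -1.57 in KITpos against GFRA1neg, and from -1.21 to -1.09 in P6gonocyte against GFRA1pos; Rrm2 to Rrm1 ran from 0.85 to 1.25, from 1.72 to 2.13 and from 0.18 to 0.34 in the same comparisons. Groups of 4 or 5 libraries, and as few as 33 counts of a gene in a library, limit what could be called.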
